A study of Mus musculus with 9 samples.

Results

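The collagen genes were described as a family in skin of the control, IMQ and LYS-High mice. A gene was a member when its symbol was Col, a type number, the letter a and a chain number with nothing after it, and 43 of the 29205 genes in the deposited table met this rule, which used no measured value. They cover 27 collagen types and were grouped by type into 11 fibrillar collagens (types I, II, III, V, XI, XXIV and XXVII), 9 basement membrane collagens (types IV, VII, XVII and XVIII) and 23 other collagens. RNA came from the back skin of male BALB/c mice, 6 to 8 weeks old and 22 ± 2 g in weight, which adapted for 7 days and had their backs shaved and depilated in every group. The IMQ and LYS-High groups had 62.5 mg of cream with 5% w/w imiquimod (IMQ) put on the back each day for 5 days, and the control group had none. Imiquimod is a Toll-like receptor agonist that gives psoriasis-like lesions on mouse skin. The LYS-High group was also given Longkui Yinxiao Soup (LYS), a herbal decoction, by gavage, and its labels name LYS without a dose. Skin was collected on day 13, and each group had 3 libraries, numbered 1 to 3 in the labels.

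The counts summed over all genes were 18123424, 19609878 and 17149506 in control 1 to 3, 17988104, 17005853 and 16915191 in IMQ 1 to 3, and 14658645, 16743869 and 15877301 in LYS-High 1 to 3. Libraries of the same group differed more than counting error alone gives (chi-square divided by its degrees of freedom, 18.4 to 109), and nothing in the labels says which animal each came from, so p-values measure the spread between these samples, which may be technical. The paper describes skin taken at random from each group (n = 3) and refers to biological duplicates, without naming the animals. Levels are given as the deposited FPKM, which is a count scaled to gene length in kilobases and to the library's summed counts. Log2 fold changes come from edgeR's quasi-likelihood test on the counts, fitted on the 6 libraries of the compared groups with TMM scaling, which corrects for differences in library composition that FPKM keeps, so ratios of FPKM and fitted changes differ. A gene was called higher or lower at a Benjamini-Hochberg adjusted p under 0.05 over all genes tested and an absolute log2 fold change over 0.58. Genes with too few counts for edgeR's filter were not tested: 38 of the 43 collagen genes were tested in at least 1 comparison, and Col2a1, Col4a6, Col9a2, Col10a1 and Col19a1 in none. Mean FPKM over the 9 libraries was at least 10 for 16 collagen genes and under 1 for 19.

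Collagens are secreted or membrane-bound proteins whose alpha chains wind around each other into a rope-like helix rich in glycine and proline. Fibrillar collagens assemble into the cross-linked fibers that give the dermis its tensile strength and are made mainly by fibroblasts. Type IV collagen forms the sheet-like network of basement membranes under the epidermis and around vessels, type VII the anchoring fibrils that tie the epidermal basement membrane to the dermis, and type XVII is a transmembrane protein of the hemidesmosomes of basal keratinocytes. The remaining types include beaded filaments (type VI), collagens that coat fibril surfaces, short-chain network formers and transmembrane collagens.

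Within groups the libraries were not alike, and the collagen results rest on this. IMQ 1 had more collagen RNA than IMQ 2 and IMQ 3, and LYS-High 1 had less than LYS-High 2 and LYS-High 3. The same libraries stood apart for fibroblast markers (Pdgfra, Dcn, Lum, Dpt, Fbln1, Mfap5, Pi16, Clec3b, Dpp4 and Twist2), whose summed FPKM was 433.7, 266.1 and 221.8 in IMQ 1 to 3 and 536.8, 862.9 and 1293.6 in LYS-High 1 to 3. Keratinocyte and fibroblast markers were present in every library, as in skin, whereas hair follicle markers were near 0 in all IMQ and LYS-High libraries. In bulk tissue, fewer cells of a type and less RNA per cell cannot be told apart, which holds for every collagen result.

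The share of a library's counts that fell on collagen genes was 2.97%, 3.57% and 3.62% in control 1 to 3. It was 1.13%, 0.44% and 0.35% in IMQ 1 to 3, and 1.07%, 1.68% and 2.18% in LYS-High 1 to 3. All IMQ and LYS-High libraries lay below all control libraries, while IMQ 1 lay just above LYS-High 1, so the treated groups overlapped. The means were 3.39% ± 0.358, 0.64% ± 0.427 and 1.64% ± 0.557 (SD, n = 3 each), and the IMQ mean was 0.395% without IMQ 1. The Wilson 95% interval of each library's share was at most 0.00883 percentage points to either side, covering counting error only, so differences between libraries of a group far exceeded it. No test was made on these sums.

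On the per-length scale, fibrillar collagens held most of the collagen FPKM: 77.5% ± 1.67 in control, 69.3% ± 7.24 in IMQ and 75.6% ± 4.17 in LYS-High skin (SD, n = 3). Their summed FPKM was 2636.8, 3242.1 and 3329.4 in control 1 to 3, 1010.9, 363.8 and 261.2 in IMQ 1 to 3, and 885.4, 1532.6 and 1963.2 in LYS-High 1 to 3. The other collagens summed to 565.1, 619.3 and 605.4 FPKM, then 140.9, 57.8 and 48.8, and then 169.4, 203.6 and 305.1 in the same libraries. In both sums IMQ 1 was more than 2 times as high as IMQ 2 and IMQ 3. Basement membrane collagens kept more of their level, with summed FPKM of 283.8, 300.2 and 284.5 in control 1 to 3, 173.7, 98.7 and 112.6 in IMQ 1 to 3, and 196.2, 220.0 and 262.1 in LYS-High 1 to 3. Their share of the collagen FPKM was 8.14%, 7.21% and 6.74% in control 1 to 3, 13.1%, 19.0% and 26.6% in IMQ 1 to 3, and 15.7%, 11.2% and 10.4% in LYS-High 1 to 3. Every IMQ and LYS-High library thus had a larger basement membrane share than every control library, and the IMQ and LYS-High ranges overlapped.

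Leaving Col17a1 out, the mean basement membrane share was 6.82% in control, 12.9% in IMQ and 10.1% in LYS-High skin, against 7.37%, 19.6% and 12.4% with it. Col17a1 held 0.548%, 0.435% and 0.766% of the collagen FPKM in control 1 to 3, 3.79%, 7.55% and 12.0% in IMQ 1 to 3, and 3.99%, 2.09% and 1.62% in LYS-High 1 to 3. By mean FPKM among the 43 genes, Col17a1 was in place 15 in control, 4 in IMQ and 7 in LYS-High skin, and Col7a1 moved from place 22 to 14 and 18. Col11a1 went the opposite way, from place 18 to 32 and 31. The top of the order changed little: Col1a1, Col3a1 and Col1a2 were in places 1, 2 and 3 in the control and IMQ groups, and Col3a1 came before Col1a1 in the LYS-High group by less than their spread.

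**Figure D1:**
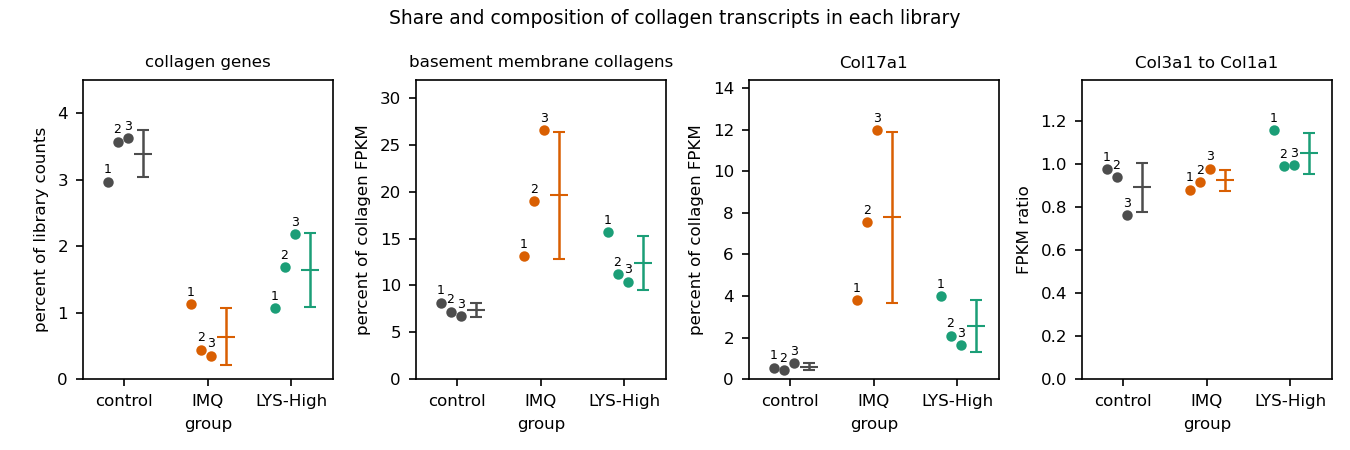
Points are single libraries with their replicate number, and bars are the mean and SD of the 3 libraries of a group. The panels show the percent of library counts on collagen genes, the percent of collagen FPKM on basement membrane collagens and on Col17a1, and the ratio of Col3a1 to Col1a1 FPKM. Collagen genes took 2.97% to 3.62% of the counts in control libraries and 0.35% to 1.13% in IMQ libraries, and the basement membrane share was highest in IMQ 3 at 26.6%.

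IMQ cream is used to give psoriasis-like skin, and its comparison with control skin asks which collagens differ there. Most collagens fell. Of 37 collagen genes tested in IMQ against control skin, 27 were called lower (26.9% of all 15976 genes tested were) and 3 were called higher (24.1% of all genes were). The lower calls were 8 of 10 fibrillar, 5 of 8 basement membrane and 14 of 19 other collagens, and the higher calls were Col7a1, Col17a1 and Col13a1. The median log2 fold change was -2.17 for fibrillar, -1.24 for basement membrane and -1.60 for other collagens, against -0.06 for all genes. Of the 30 calls, 24 held in every refit that was run, and Col13a1, Col25a1, Col28a1, Col4a3, Col6a5 and Col8a1 were lost in some. Without TMM scaling, on library totals alone, the median of all genes was itself -0.51, and 31 collagens were called lower (42.9% of all genes were) and 2 higher (15% of all genes). No class median changed sign under any scaling.

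LYS-High skin was compared with IMQ skin to ask what differs when LYS is given. Collagen levels were mostly higher than in the IMQ group, but 0 of 34 collagen genes passed the adjusted threshold in edgeR, as did 0 of all 15460 genes (0.0% higher and 0.0% lower). The smallest edgeR adjusted p of a collagen was 0.0591, for Col27a1. At an unadjusted p under 0.05, 19 collagens were higher and 0 lower, where 19.3% and 15.9% of all genes were. In scaled counts (CPM), 16 collagens were higher without overlap between the groups and 0 were lower, against 19.2% and 19.3% of all genes. Both counts of higher collagens include Col8a2 and Col22a1, which passed the filter here only through the LYS-High libraries, where they were higher. The median log2 fold change was 1.18 for fibrillar, 0.41 for basement membrane and 1.2 for other collagens, against 0.04 for all genes, and on library totals alone the median of all genes was 0.29.

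Other settings gave calls in this comparison. DESeq2 called 15 of 33 collagens higher and 0 lower, where it called 12.8% and 9.18% of all genes: Col3a1, Col5a1, Col5a2, Col27a1, Col4a1, Col4a2, Col6a1, Col6a2, Col6a3, Col6a5, Col6a6, Col8a1, Col8a2, Col12a1 and Col14a1. When edgeR was fitted to all 9 libraries together, 12 of 38 were called higher and 0 lower (9.93% and 8.62% of all genes), which were those 15 without Col3a1, Col6a5 and Col6a6. Calls that were all higher also came from edgeR without a filter on low counts (11 of 43, where 5.3% of all genes were called higher and 3.53% lower), from DESeq2 with all 9 libraries (20 of 38, with 13.9% and 10.3%) and at an adjusted p under 0.1 (12 of 34, with 12.5% and 8.57%). Leaving out IMQ 1 gave 17 higher and 0 lower of 35 (6.8% and 5.03% of all genes): Col1a1, Col1a2, Col3a1, Col5a1, Col5a2, Col5a3, Col27a1, Col4a1, Col4a2, Col18a1, Col6a1, Col6a2, Col6a3, Col8a1, Col14a1, Col15a1 and Col16a1. Leaving out LYS-High 1 gave 10 higher of 36 (14.9% of all genes): Col5a1, Col5a2, Col27a1, Col4a1, Col4a2, Col6a5, Col6a6, Col8a1, Col14a1 and Col28a1. Col7a1 was then the only collagen called lower (11.9% of all genes), and leaving out any of the other 4 libraries gave 0 calls. The basement membrane median was 0.87 without IMQ 1 and 0.19 without LYS-High 3, and the fibrillar median was 1.8 without IMQ 1.

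LYS-High skin was also set beside control skin, and here 15 of 37 collagens were called lower (12.9% of all 16003 genes tested) and 2 higher (15.1% of all genes). The lower calls were 6 of 10 fibrillar, 1 of 8 basement membrane and 8 of 19 other collagens, and the higher calls were again Col7a1 and Col17a1. The class medians were -1.05, -0.49 and -0.78, against -0.01 for all genes, or -0.15 on library totals alone. Of the 17 calls, 10 held in every refit that was run. Without control 1 there were 11 of 38, all lower (6.6% of all genes were called lower and 9.2% higher), and the same number, all lower, without control 2 (8.05% and 9.93%). The basement membrane median was -0.26 without LYS-High 1. The comparisons share libraries with each other, so their values for a gene are given side by side and not as separate support.

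**Figure D2:**
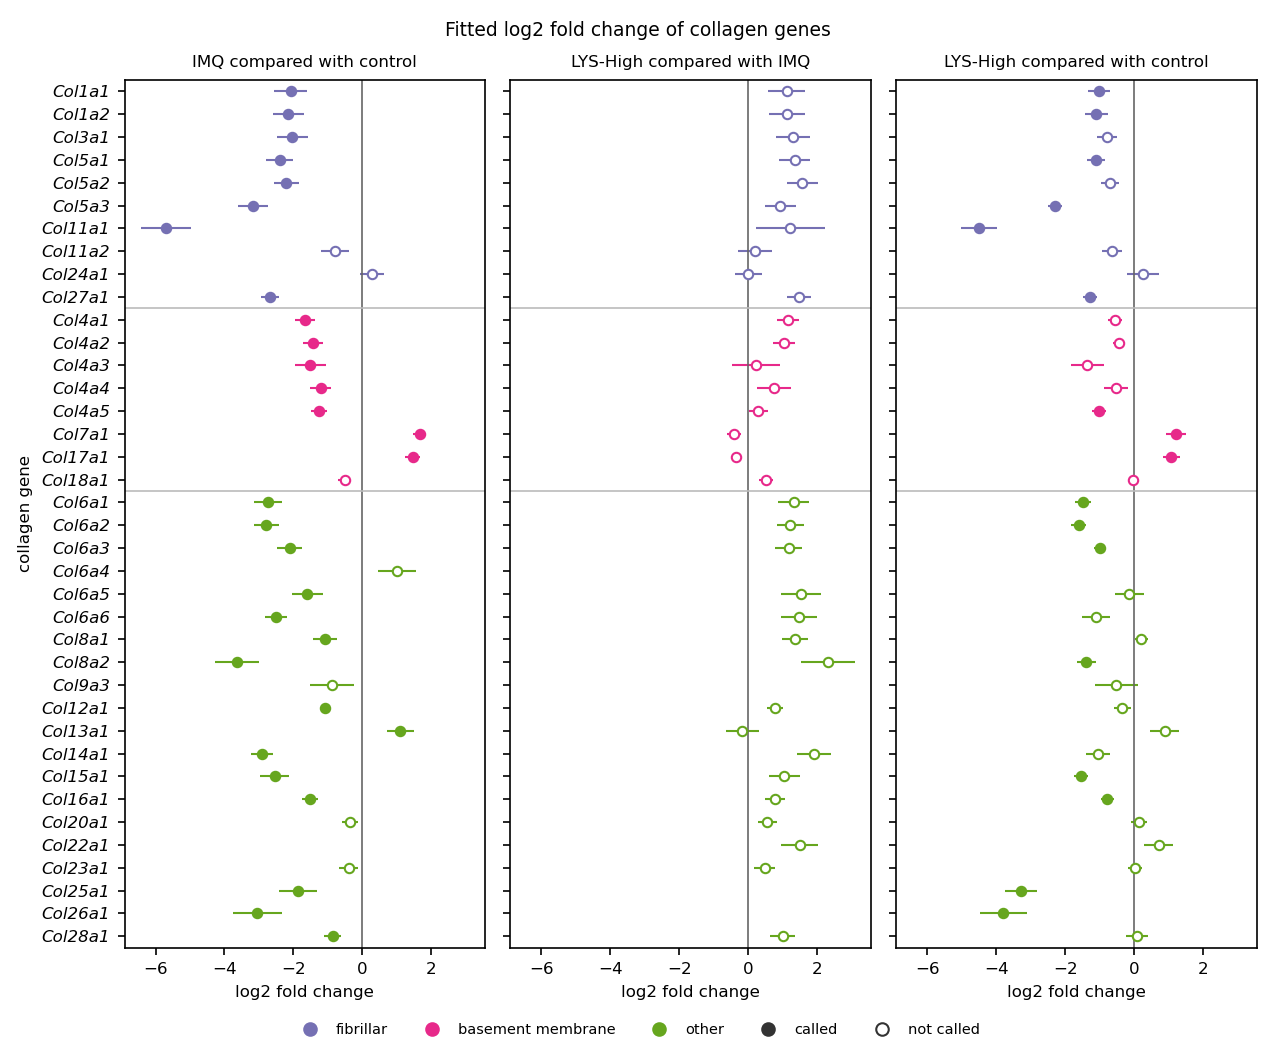
Each point is a collagen gene's fitted log2 fold change (edgeR, x axis) with its standard error as the bar, in the 3 comparisons, with genes on the y axis grouped by class and filled points for called genes. Of the tested collagens, 27 were called lower and 3 higher in IMQ against control skin, 0 were called in LYS-High against IMQ skin, and 15 were called lower and 2 higher in LYS-High against control skin. Untested genes have no point, and the value of Col25a1 in the LYS-High panel against control rests on 5 counts in the LYS-High group.

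Col1a1 (ENSMUSG00000001506, chromosome 11 of GRCm38, 94936224 to 94953042) and Col1a2 (ENSMUSG00000029661, chromosome 6, 4504814 to 4541544) encode the chains of type I collagen, the main fiber of the dermis. Col1a1 had 977.3, 1219.7 and 1373.3 FPKM in control 1 to 3, 406.6, 140.8 and 98.7 in IMQ 1 to 3, and 315.2, 588.2 and 732.8 in LYS-High 1 to 3. Every control library was above every other library, and IMQ 1 was above LYS-High 1. Col1a1 fell in IMQ against control skin by 2.07 on the log2 scale (standard error 0.477, edgeR adjusted p = 0.00627), and its log2 fold change was -2.78 without IMQ 1. For LYS-High against IMQ skin the change was 1.12 (standard error 0.532, edgeR adjusted p = 0.176), and 1.85 without IMQ 1, where it was called (edgeR adjusted p = 0.0456, with 0.0456 to 0.402 over the alternatives). Compared with the control group, Col1a1 was called lower in the LYS-High group at -1.01 (edgeR adjusted p = 0.0446), close to the threshold. That call was lost without control 1 (edgeR adjusted p = 0.0901), control 2 (0.129), control 3 (0.105) or LYS-High 2 (0.117), with the replicate number as a block (0.0609) and with all 9 libraries in a single fit of edgeR (0.121) or DESeq2 (0.0701), the range over alternatives being 0.00244 to 0.129.

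Its partner chain followed closely. Col1a2 had 516.9, 670.3 and 722.6 FPKM in control 1 to 3, 200.4, 75.2 and 51.8 in IMQ 1 to 3, and 154.3, 288.1 and 386.1 in LYS-High 1 to 3. The ratio of Col1a1 to Col1a2 FPKM was 1.87 ± 0.0443 in control, 1.94 ± 0.0822 in IMQ and 1.99 ± 0.0833 in LYS-High skin (SD, n = 3). In counts, which keep gene length, the ratio was 0.988 ± 0.0234, 1.02 ± 0.0434 and 1.05 ± 0.044 in the same order. The log2 fold changes of Col1a2 were -2.14 (standard error 0.458, edgeR adjusted p = 0.00435) in IMQ against control skin, 1.12 (edgeR adjusted p = 0.171) in LYS-High against IMQ skin and -1.09 (edgeR adjusted p = 0.0403) in LYS-High against control skin. Without IMQ 1 the first was -2.79 and the second 1.79, which was called (edgeR adjusted p = 0.0488, with 0.0454 to 0.398 over the alternatives). The third was not called without control 1 (0.0843), control 2 (0.123), control 3 (0.0947) or LYS-High 2 (0.116), nor with the replicate number as a block (0.0526) or all 9 libraries in a single fit (edgeR adjusted p = 0.0923, range over alternatives 0.00175 to 0.123).

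Col3a1 (ENSMUSG00000026043, chromosome 1, 45311538 to 45349706) encodes type III collagen, which forms fibers together with type I and is plentiful in young skin and around vessels. It had 953.9, 1144.7 and 1047.5 FPKM in control 1 to 3, 358.5, 128.9 and 96.7 in IMQ 1 to 3, and 364.4, 582.9 and 729.9 in LYS-High 1 to 3. LYS-High 1 was only just above IMQ 1, and every control library was above both groups. Col3a1 fell by 2.03 on the log2 scale in IMQ against control skin (standard error 0.453, edgeR adjusted p = 0.00534), with -2.69 without IMQ 1. Its log2 fold change was 1.30 in LYS-High against IMQ skin (standard error 0.496, edgeR adjusted p = 0.114), and it was called without IMQ 1 (1.98, edgeR adjusted p = 0.0409) and under DESeq2 (adjusted p = 0.0216), with 0.0101 to 0.308 over the alternatives. It was not called in LYS-High against control skin (-0.79, edgeR adjusted p = 0.0708), except without LYS-High 3 (-0.98, edgeR adjusted p = 0.0386) and in 3 other settings, over a range of 0.00581 to 0.195.

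The balance of type III to type I is given by the ratio of Col3a1 to Col1a1 FPKM, which was 0.976, 0.939 and 0.763 in control 1 to 3, 0.882, 0.915 and 0.98 in IMQ 1 to 3, and 1.16, 0.991 and 0.996 in LYS-High 1 to 3. The group means were 0.892 ± 0.114, 0.925 ± 0.0499 and 1.05 ± 0.0939 (SD, n = 3). Control and IMQ means differed by less than their spread, and the LYS-High mean was higher by little more than the spread. Each LYS-High library lay above every control and IMQ library. The separation was narrow, with 0.991 in LYS-High 2 against 0.98 in IMQ 3. No test was made on this ratio.

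**Figure D3:**
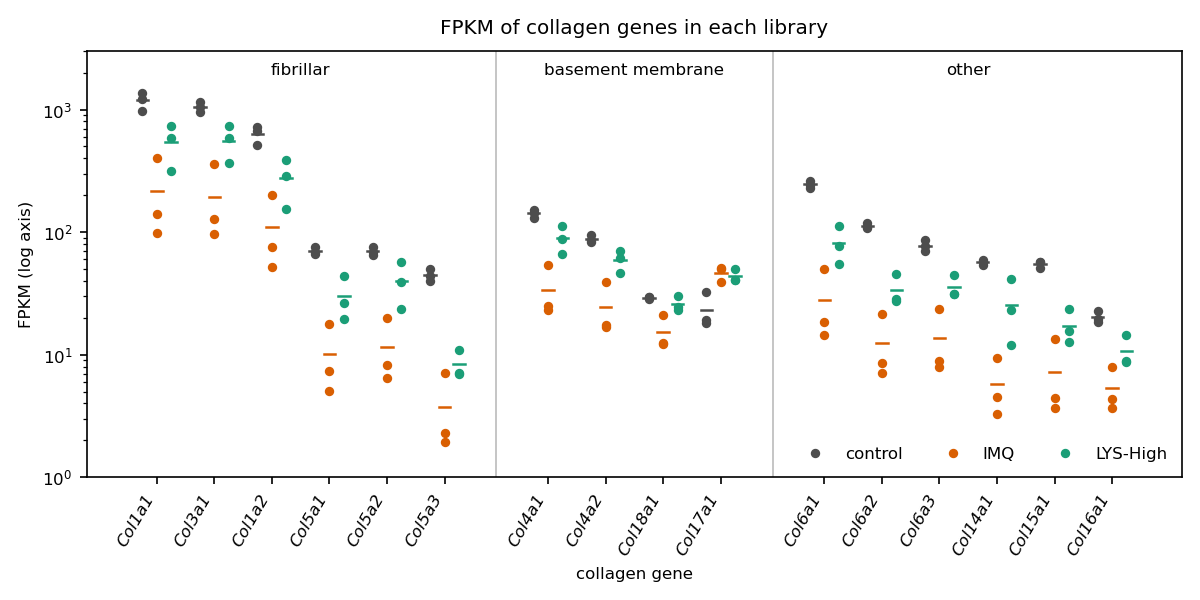
Each point is a library's FPKM (log y axis) for the 16 collagen genes with a mean of at least 10 FPKM (x axis), by class, and short lines are the means of the 3 libraries of a group. Control libraries were highest for most genes, such as Col1a1 with 977.3 to 1373.3 FPKM, whereas Col17a1 had 18.1 to 32.3 FPKM in control libraries and 39.3 to 50.7 in IMQ libraries.

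Type V collagen starts fibrils and sets their width, inside fibers of types I and III. Col5a1 (ENSMUSG00000026837, chromosome 2, 27886425 to 28039514) had 66.9, 75.1 and 68.6 FPKM in control 1 to 3, 17.8, 7.35 and 5.06 in IMQ 1 to 3, and 19.6, 26.2 and 44.1 in LYS-High 1 to 3. Col5a2 (ENSMUSG00000026042, chromosome 1, 45374321 to 45503282) had 69.3, 76.0 and 65.2 FPKM, then 19.9, 8.26 and 6.42, and then 23.6, 38.9 and 57.5 in the same libraries. For both chains the 3 groups did not overlap in FPKM. Col5a1 fell by 2.40 on the log2 scale (standard error 0.384, edgeR adjusted p = 0.00106) and Col5a2 by 2.20 (standard error 0.357, edgeR adjusted p = 0.00112) in IMQ against control skin. From IMQ to LYS-High skin their log2 fold changes were 1.35 (edgeR adjusted p = 0.0927) and 1.57 (edgeR adjusted p = 0.0697). Without IMQ 1 both were called (edgeR adjusted p = 0.0416 and 0.0409), as they were without LYS-High 1 (0.0491 and 0.0244), over ranges of 0.00707 to 0.26 for Col5a1 and 0.0012 to 0.223 for Col5a2.

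Compared with the control group, Col5a1 was called lower in the LYS-High group (-1.11, edgeR adjusted p = 0.016) and Col5a2 was not (-0.70, edgeR adjusted p = 0.0865). The difference between the chains was not tested. The Col5a1 call was lost without control 1 (0.0611), control 2 (0.0682) or LYS-High 2 (0.068) and with all 9 libraries in a single fit (edgeR adjusted p = 0.0518), over a range of 0.000378 to 0.0682. Col5a2 was called by DESeq2 (adjusted p = 0.046) and without LYS-High 3 (-1.0, edgeR adjusted p = 0.016, with 0.016 to 0.237 over the alternatives). The ratio of Col5a1 to Col5a2 FPKM was 0.966, 0.988 and 1.05 in control 1 to 3, 0.894, 0.889 and 0.789 in IMQ 1 to 3, and 0.831, 0.675 and 0.768 in LYS-High 1 to 3, so it lay lower in every IMQ and LYS-High library than in any control library.

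Col5a3 (ENSMUSG00000004098, chromosome 9, 20770050 to 20815067), a less common type V chain, fell further than its partners. It had 44.2, 49.8 and 40.1 FPKM in control 1 to 3, 7.05, 2.3 and 1.94 in IMQ 1 to 3, and 6.94, 7.12 and 11 in LYS-High 1 to 3. Its log2 fold change was -3.17 in IMQ against control skin (standard error 0.429, edgeR adjusted p = 0.000466), and -3.87 without IMQ 1. For LYS-High against control skin the change was -2.30 (standard error 0.202, edgeR adjusted p = 0.000504). The value in LYS-High against IMQ skin was 0.93 (edgeR adjusted p = 0.179), called without IMQ 1 (1.65, edgeR adjusted p = 0.0406, with 0.0406 to 0.407 over the alternatives). The ratio of Col5a3 to Col5a1 FPKM was 0.636 ± 0.0443 in control, 0.364 ± 0.0451 in IMQ and 0.291 ± 0.0557 in LYS-High skin (SD, n = 3), so the LYS-High libraries did not come nearer the control ratio than the IMQ libraries.

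The remaining fibrillar collagens were scarce. Col11a1 (ENSMUSG00000027966, chromosome 3, 114030540 to 114220718), a chain of the type XI collagen best known from cartilage fibrils, had 5.99, 4.39 and 9.78 FPKM in control 1 to 3. It had 0.0393, 0.231 and 0.00928 FPKM in IMQ 1 to 3, from 9, 50 and 2 counts, and 0.0856, 0.253 and 0.47 in LYS-High 1 to 3, from 16, 54 and 95 counts. It had the most negative log2 fold change of all tested collagens in both comparisons with the control group, -5.70 in IMQ skin (standard error 0.724, edgeR adjusted p = 0.000342) and -4.50 in LYS-High skin (standard error 0.517, edgeR adjusted p = 0.0013). Without IMQ 2 the first was -7.64, and without LYS-High 3 the second was -5.10. In IMQ against control skin Col11a1 passed the filter only through the control libraries, so its exact log2 fold change there is uncertain. With LYS-High set against IMQ, the value was 1.23 (standard error 1.01, edgeR adjusted p = 0.405), with 3.21 without IMQ 2 and 0.60 without LYS-High 3. The standard error was nearly as large as the value.

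Col27a1 (ENSMUSG00000045672, chromosome 4, 63214004 to 63334991), a fibrillar collagen with a shorter helix, had 1.44, 1.58 and 1.49 FPKM in control 1 to 3, 0.265, 0.145 and 0.113 in IMQ 1 to 3, and 0.492, 0.468 and 0.75 in LYS-High 1 to 3. Its 3 groups did not overlap, and it kept its calls against the control group in every refit. The log2 fold changes were -2.67 in IMQ skin (standard error 0.266, edgeR adjusted p = 0.000108) and -1.27 in LYS-High skin (standard error 0.201, edgeR adjusted p = 0.00407), both compared with the control group. In the comparison of LYS-High with IMQ skin the value was 1.47 (standard error 0.344, edgeR adjusted p = 0.0591), and it was called without IMQ 1 (edgeR adjusted p = 0.0409) and without LYS-High 1 (0.0282), with 0.000105 to 0.22 over the alternatives. Col24a1 was tested without a call, with 0.355, 0.161 and 0.413 FPKM in control 1 to 3, 0.284, 0.255 and 0.279 in IMQ 1 to 3, and 0.492, 0.243 and 0.24 in LYS-High 1 to 3, and the groups overlapped. Col11a2 had a log2 fold change of -0.79 in IMQ against control skin (edgeR adjusted p = 0.128), and it was called without IMQ 2 (-1.35, edgeR adjusted p = 0.021) and on library totals alone (-1.26, edgeR adjusted p = 0.0222), with 0.021 to 0.329 over the alternatives. Col2a1, the main collagen of cartilage, had 3, 8 and 4 counts in control 1 to 3, 0, 1 and 0 in IMQ 1 to 3, and 0, 0 and 1 in LYS-High 1 to 3. The IMQ to control ratio of its scaled counts was 0.0705, with a 95% counting interval of 0.00167 to 0.458, and it was not tested.

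Among basement membrane collagens, Col4a1 (ENSMUSG00000031502, chromosome 8, 11198423 to 11312826) and Col4a2 (ENSMUSG00000031503, chromosome 8, 11312805 to 11449287) encode the chains found in nearly all basement membranes, those of vessels included. Col4a1 had 142.9, 151.8 and 131.3 FPKM in control 1 to 3, 54.1, 23.0 and 24.8 in IMQ 1 to 3, and 66.7, 87.8 and 112.6 in LYS-High 1 to 3. Col4a2 had 86.6, 94.9 and 82.9 FPKM, then 39.4, 16.8 and 17.4, and then 46.2, 61.5 and 70.5 in the same libraries. For both genes the LYS-High libraries lay between the IMQ and the control libraries without overlap. Col4a1 fell by 1.65 on the log2 scale (standard error 0.289, edgeR adjusted p = 0.00165) and Col4a2 by 1.43 (standard error 0.286, edgeR adjusted p = 0.00314) in IMQ against control skin. For LYS-High against IMQ skin the values were 1.16 (edgeR adjusted p = 0.0684) and 1.05 (edgeR adjusted p = 0.075). They were called without IMQ 1 (edgeR adjusted p = 0.0406 for both) and without LYS-High 1 (0.0314 and 0.0399), with 0.00174 to 0.22 over the alternatives for Col4a1 and 0.00393 to 0.228 for Col4a2. With LYS-High set against control, neither was called, at -0.55 (edgeR adjusted p = 0.0707) and -0.44 (edgeR adjusted p = 0.0861). Col4a1 was called there on library totals alone (0.0443) and without LYS-High 3 (-0.70, edgeR adjusted p = 0.0329, with 0.0258 to 0.2 over the alternatives). The ratio of Col4a1 to Col4a2 FPKM was 1.61 ± 0.0348 in control, 1.39 ± 0.0305 in IMQ and 1.49 ± 0.0949 in LYS-High skin (SD, n = 3), which was lower in every IMQ library than in any control library.

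The other type IV chains, which build the networks of more specialised basement membranes, were expressed at low levels. Col4a5 (ENSMUSG00000031274, chromosome X, 141475385 to 141689234) had 2.16, 2.01 and 2.73 FPKM in control 1 to 3, 0.728, 0.867 and 0.502 in IMQ 1 to 3, and 0.883, 0.889 and 1.31 in LYS-High 1 to 3. It was the only basement membrane collagen called lower in LYS-High against control skin (-1.02, standard error 0.201, edgeR adjusted p = 0.00874), and it fell by 1.26 on the log2 scale in the IMQ group (edgeR adjusted p = 0.00206). Col4a4 fell by 1.21 in IMQ against control skin (edgeR adjusted p = 0.0109). Compared with the control group, its log2 fold change in the LYS-High group was -0.53 (edgeR adjusted p = 0.279), and it was called without LYS-High 3 (-0.98, edgeR adjusted p = 0.0338, with 0.0338 to 0.523 over the alternatives). Col4a3, with 0.457 ± 0.0465 FPKM in the control group, was called lower in the IMQ group at -1.51 (edgeR adjusted p = 0.019), at -2.28 without IMQ 1. It was not called without control 1 (0.0571), control 2 (0.055), IMQ 2 (0.0583) or IMQ 3 (edgeR adjusted p = 0.0518), over a range of 0.0007 to 0.0583. Its value in LYS-High against control skin was -1.36 (edgeR adjusted p = 0.064), and it was called by DESeq2 (0.0268) and without LYS-High 1 (0.0484) or LYS-High 3 (edgeR adjusted p = 0.0207), with 0.0207 to 0.177 over the alternatives. Col4a6 had at most 9 counts in a library and was not tested.

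Against this fall, the 2 collagens of the epidermal attachment rose. Col17a1 (ENSMUSG00000025064, chromosome 19, 47646344 to 47692094) had 19.1, 18.1 and 32.3 FPKM in control 1 to 3, 50.3, 39.3 and 50.7 in IMQ 1 to 3, and 49.9, 40.9 and 40.9 in LYS-High 1 to 3. All IMQ and LYS-High libraries were above all control libraries, and the IMQ and LYS-High libraries overlapped. Col17a1 rose by 1.47 on the log2 scale in IMQ against control skin (standard error 0.222, edgeR adjusted p = 0.000779), and this call held in every refit. In the LYS-High group the value was 1.08 against control skin (standard error 0.242, edgeR adjusted p = 0.0138), and it was not called without control 1 (0.0636) or control 2 (edgeR adjusted p = 0.0552), with 5.77e-05 to 0.0636 over the alternatives. It was -0.34 in LYS-High against IMQ skin (standard error 0.171, edgeR adjusted p = 0.198).

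Col7a1 (ENSMUSG00000025650, chromosome 9, 108953586 to 108984875) had 2.52, 2.14 and 3.84 FPKM in control 1 to 3, 7.13, 5.96 and 6.62 in IMQ 1 to 3, and 7.7, 4.84 and 5.07 in LYS-High 1 to 3. As for Col17a1, control 3 was the highest control library and still lay below every IMQ and LYS-High library. Its log2 fold changes were 1.67 in IMQ skin (standard error 0.192, edgeR adjusted p = 0.000211) and 1.22 in LYS-High skin (standard error 0.282, edgeR adjusted p = 0.0156), both compared with the control group. The second was not called without control 1 (0.0673) or control 2 (edgeR adjusted p = 0.0584), with 6.01e-05 to 0.0673 over the alternatives. From IMQ to LYS-High skin the value was -0.41 (edgeR adjusted p = 0.212), and without LYS-High 1, which had the highest LYS-High value, it was called lower (-0.69, edgeR adjusted p = 0.0103, with 0.0103 to 0.548 over the alternatives).

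Basal keratinocyte markers (Krt5, Krt14, Krt15, Itga6, Itgb4 and Trp63) were, like these genes, higher in sum in IMQ and LYS-High than in control skin. Their summed FPKM was 1154.0, 987.3 and 1616.5 in control 1 to 3, 5855.5, 4305.5 and 4324.4 in IMQ 1 to 3, and 6435.0, 4269.8 and 4011.9 in LYS-High 1 to 3, with Krt14 the most abundant and no marker at 0. Control 3 was the highest control library for this sum as it was for Col17a1 and Col7a1. For IMQ against control skin 5 of these 6 genes were called higher (24.1% of all genes) and Krt15 lower (median log2 fold change 0.76), edgeR and DESeq2 called 0 in LYS-High against IMQ skin (median -0.20), and 4 were higher (15.1% of all genes) and Krt15 lower in LYS-High against control skin (median 0.88). On library totals alone, only Krt5 and Krt14 of the 5 were called higher in IMQ skin, and Itga6, Itgb4 and Trp63 were not. Without control 1 and with the replicate number as a block, Itgb4 and Krt14 alone of the 4 were called higher in LYS-High against control skin. In these settings 9.2% and 10.8% of all genes were called higher. Col17a1 FPKM per FPKM of this sum was 0.0183 ± 0.00171 in control, 0.00981 ± 0.00168 in IMQ and 0.00918 ± 0.00127 in LYS-High skin (SD, n = 3), a sum that Krt14 dominates. The part of these cells in the rise of Col17a1 and Col7a1 was not tested.

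Col18a1 (ENSMUSG00000001435, chromosome 10, 77052178 to 77166548), whose protein carries heparan sulfate in vascular and epithelial basement membranes, had the log2 fold changes nearest to 0 of the 16 collagens at 10 FPKM or more in both comparisons with the control group. It had 28.7, 29.4 and 29.7 FPKM in control 1 to 3, 21.1, 12.4 and 12.2 in IMQ 1 to 3, and 24.4, 23.1 and 30.1 in LYS-High 1 to 3. Its log2 fold change in IMQ against control skin was -0.51 (standard error 0.179, edgeR adjusted p = 0.0362), short of the fold change threshold. It passed that threshold without IMQ 1 (-0.72, edgeR adjusted p = 0.000859) and on library totals alone (-0.94, edgeR adjusted p = 0.00576), with 0.000859 to 0.131 over the alternatives. The value was 0.53 in LYS-High against IMQ skin (edgeR adjusted p = 0.119), called without IMQ 1 (0.75, edgeR adjusted p = 0.0443, with 0.0443 to 0.32 over the alternatives), and -0.04 in LYS-High against control skin (edgeR adjusted p = 0.837).

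Among the other collagens, type VI forms beaded microfilaments near cells and between fibers, from chains that Col6a1, Col6a2 and Col6a3 encode. Col6a1 (ENSMUSG00000001119, chromosome 10, 76708792 to 76726168) had 230.8, 262.3 and 242.2 FPKM in control 1 to 3, 50.4, 18.6 and 14.4 in IMQ 1 to 3, and 54.6, 76.5 and 112.3 in LYS-High 1 to 3. Col6a2 (ENSMUSG00000020241, chromosome 10, 76595762 to 76623630) had 108.5, 119.3 and 109.7 FPKM, then 21.5, 8.6 and 7.02, and then 27.6, 28.5 and 45.2 in the same libraries. Col6a3 (ENSMUSG00000048126, chromosome 1, 90765923 to 90843971) had 70.3, 76.6 and 86.0 FPKM, then 23.8, 8.92 and 7.93, and then 31.3, 31.4 and 44.3. The 3 groups were apart for each chain, with the IMQ libraries lowest and the LYS-High libraries well below the control libraries.

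All 3 chains were called lower in both groups compared with the control group, and these calls held in every refit. The log2 fold changes of Col6a1, Col6a2 and Col6a3 in the IMQ group were -2.74, -2.78 and -2.11 (edgeR adjusted p = 0.000726, 0.000405 and 0.0015), and Col6a1 was at -3.36 without IMQ 1. In the LYS-High group they were -1.48, -1.61 and -0.99 (edgeR adjusted p = 0.00438, 0.00195 and 0.00639). With LYS-High set against IMQ, they were 1.32, 1.23 and 1.18 (edgeR adjusted p = 0.094, 0.0839 and 0.0861). Without IMQ 1 all 3 were called there, at 1.97, 1.78 and 1.75 (edgeR adjusted p = 0.0409, 0.0406 and 0.0406). Over the alternatives the adjusted p spanned 0.00733 to 0.263, 0.00533 to 0.244 and 0.00609 to 0.247. The ratio of Col6a3 to Col6a2 FPKM was 0.648, 0.642 and 0.784 in control 1 to 3, 1.11, 1.04 and 1.13 in IMQ 1 to 3, and 1.13, 1.1 and 0.98 in LYS-High 1 to 3, so Col6a3 fell less than Col6a2 in both groups. The ratio of Col6a1 to Col6a2 FPKM overlapped between the groups, with means of 2.18, 2.19 and 2.38.

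The later-found type VI chains were scarcer. Col6a6 was called lower in IMQ against control skin (-2.50, standard error 0.314, edgeR adjusted p = 0.000323), from 5.0 ± 1.01 to 0.656 ± 0.365 FPKM (SD, n = 3). In the LYS-High group it had 2.16 ± 1.31 FPKM, which was not called against the control group (-1.10, edgeR adjusted p = 0.0737) except without LYS-High 1 (0.0431), without LYS-High 3 (edgeR adjusted p = 0.0178) and in 2 further settings, over a range of 0.0178 to 0.228. Against the IMQ group, Col6a6 was at 1.48 (edgeR adjusted p = 0.102) and Col6a5 at 1.53 (edgeR adjusted p = 0.117), and both were called without LYS-High 1 (edgeR adjusted p = 0.0178 and 0.0306, with ranges of 0.0106 to 0.289 and 0.0234 to 0.294). Col6a5 was called lower in IMQ against control skin (-1.60, edgeR adjusted p = 0.0156), but not without control 1 (edgeR adjusted p = 0.0649, range 0.00137 to 0.0649). Col6a4 had at most 14 counts in a library and a log2 fold change of 1.02 in IMQ against control skin (edgeR adjusted p = 0.141).

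Collagens that sit on the surface of fibrils had a range of log2 fold changes, and differences between them were not tested. Col14a1 (ENSMUSG00000022371, chromosome 15, 55307750 to 55520803), which encodes type XIV, a collagen of the dermis that binds fibrils, had 57.5, 58.8 and 53.8 FPKM in control 1 to 3, 9.38, 4.5 and 3.26 in IMQ 1 to 3, and 12.0, 23.1 and 41.1 in LYS-High 1 to 3. Its groups did not overlap, and the LYS-High libraries were widely spread. Col14a1 fell by 2.90 on the log2 scale in IMQ against control skin (standard error 0.323, edgeR adjusted p = 0.000183). In the comparison of LYS-High with IMQ skin the value was 1.91 (standard error 0.494, edgeR adjusted p = 0.063), called without IMQ 1 (0.0454) and without LYS-High 1 (edgeR adjusted p = 0.0134), with 0.000246 to 0.222 over the alternatives. Between LYS-High and control skin it was -1.05 (edgeR adjusted p = 0.0552), called without LYS-High 1 (0.0447), without LYS-High 3 (edgeR adjusted p = 0.00526) and in 3 further settings, with 0.00526 to 0.159 over the alternatives.

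Col12a1 (ENSMUSG00000032332, chromosome 9, 79598991 to 79718831), a close relative of type XIV, fell less, with 9.62, 8.99 and 12.4 FPKM in control 1 to 3, 4.45, 3.05 and 3.31 in IMQ 1 to 3, and 9.67, 5.63 and 6.48 in LYS-High 1 to 3. LYS-High 1 was within the control range. Its log2 fold change was -1.08 in IMQ against control skin (standard error 0.149, edgeR adjusted p = 0.000506), 0.78 in LYS-High against IMQ skin (edgeR adjusted p = 0.0781, with 0.0164 to 0.234 over the alternatives, 4 of which called it) and -0.34 in LYS-High against control skin (edgeR adjusted p = 0.327). The last was called without LYS-High 1 (-0.67, edgeR adjusted p = 0.0134, with 0.0134 to 0.673 over the alternatives). Col16a1 (ENSMUSG00000040690, chromosome 4, 130047840 to 130099283), found near the dermal-epidermal junction and on fibrillin filaments, had 18.4, 19.6 and 22.7 FPKM in control 1 to 3, 7.91, 4.31 and 3.66 in IMQ 1 to 3, and 8.91, 8.78 and 14.6 in LYS-High 1 to 3. It fell by 1.51 on the log2 scale in IMQ against control skin (standard error 0.231, edgeR adjusted p = 0.000839). For LYS-High against control skin it was called lower at -0.78 (edgeR adjusted p = 0.0197), but not without control 1 (0.0588), control 2 (0.0681), control 3 (0.0631) or LYS-High 2 (edgeR adjusted p = 0.074), over a range of 0.00315 to 0.074. Against the IMQ group it was at 0.79 (edgeR adjusted p = 0.109), called without IMQ 1 (edgeR adjusted p = 0.0469, with 0.0311 to 0.296 over the alternatives).

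Of the same subfamily, Col20a1 had 0.923, 0.823 and 0.919 FPKM in control 1 to 3, 0.627, 0.377 and 0.529 in IMQ 1 to 3, and 0.703, 0.836 and 1.15 in LYS-High 1 to 3. Every IMQ library was below every control library. Col20a1 was not called in any comparison, with a log2 fold change of -0.35 in IMQ against control skin (edgeR adjusted p = 0.231), except there on library totals alone (-0.79, edgeR adjusted p = 0.0283, with 0.0283 to 0.525 over the alternatives). Col22a1, a collagen of tissue junctions such as that of muscle and tendon, had 13, 15 and 8 counts in control 1 to 3, 6, 7 and 2 in IMQ 1 to 3, and 18, 11 and 17 in LYS-High 1 to 3. It was tested in the comparisons with the LYS-High group, without a call, and passed the filter against IMQ only through the LYS-High libraries. Col9a3 had 10, 14 and 24 counts in control 1 to 3, 5, 2 and 11 in IMQ 1 to 3, and 3, 6 and 18 in LYS-High 1 to 3, and its groups overlapped. Col9a2, like Col9a3 a chain of the type IX collagen of cartilage, had 2, 7 and 3 counts in control 1 to 3 and 0 in every IMQ library, which allows up to 0.0573 FPKM there. Col19a1 had 2, 4 and 3 counts in control 1 to 3, 2, 4 and 0 in IMQ 1 to 3, and 2, 2 and 3 in LYS-High 1 to 3.

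Col15a1 (ENSMUSG00000028339, chromosome 4, 47208161 to 47313167), related to Col18a1 and found where basement membranes meet the interstitial matrix, had 50.8, 57.3 and 57.4 FPKM in control 1 to 3, 13.4, 3.67 and 4.42 in IMQ 1 to 3, and 12.8, 15.5 and 23.4 in LYS-High 1 to 3. It fell by 2.54 on the log2 scale in IMQ against control skin (standard error 0.416, edgeR adjusted p = 0.00117), with -3.24 without IMQ 1. With LYS-High set against control, its value was -1.55 (standard error 0.201, edgeR adjusted p = 0.00199), a call that held in every refit. Against the IMQ group it was at 1.05 (edgeR adjusted p = 0.15), called without IMQ 1 (1.76, edgeR adjusted p = 0.0406, with 0.0406 to 0.363 over the alternatives). Col18a1, its relative, was nearer to 0 in both comparisons with the control group, although the difference between them was not tested.

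Short-chain collagens form hexagonal networks. Col8a1, known from vessel walls, had 2.56, 2.62 and 3.48 FPKM in control 1 to 3, 1.56, 1.01 and 0.453 in IMQ 1 to 3, and 2.28, 3.03 and 3.84 in LYS-High 1 to 3, where the LYS-High libraries overlapped the control libraries. It was called lower in IMQ against control skin (-1.09, standard error 0.347, edgeR adjusted p = 0.0257), but not without control 2 (0.0538), control 3 (0.0771) or IMQ 2 (edgeR adjusted p = 0.0616), over a range of 0.00483 to 0.0771. Its log2 fold change in the LYS-High group was 1.36 against IMQ skin (edgeR adjusted p = 0.0701) and 0.21 against control skin (edgeR adjusted p = 0.415). The first was called without IMQ 1 (0.0463) and without LYS-High 1 (edgeR adjusted p = 0.0363), with 0.0026 to 0.222 over the alternatives. Its partner Col8a2 had 103, 88 and 129 counts in control 1 to 3, 13, 5 and 0 in IMQ 1 to 3, and 29, 27 and 40 in LYS-High 1 to 3. The groups were apart, and Col8a2 was called lower in the IMQ group (-3.64, standard error 0.636, edgeR adjusted p = 0.00161, and -4.73 without IMQ 1). It was also called lower in the LYS-High group (-1.39, edgeR adjusted p = 0.00969), both compared with the control group. With all 9 libraries in a single fit the LYS-High call was lost (edgeR adjusted p = 0.0649, with 0.000382 to 0.0649 over the alternatives). From IMQ to LYS-High skin, Col8a2 had the highest log2 fold change of the tested collagens, 2.32 (standard error 0.774, edgeR adjusted p = 0.089), with 3.41 without IMQ 1 and 1.78 without IMQ 3. It was called there by DESeq2 (0.0207), by edgeR with all 9 libraries (0.0377) and by DESeq2 with all 9 (adjusted p = 0.000769), over a range of 0.000769 to 0.247. Col8a2 passed edgeR's filter there only through the LYS-High libraries, and in IMQ against control skin only through the control libraries. Its exact log2 fold changes in these comparisons are uncertain. Col10a1, the collagen of hypertrophic cartilage, had 1, 0 and 0 counts in control 1 to 3, 0, 2 and 2 in IMQ 1 to 3, and 6, 6 and 0 in LYS-High 1 to 3.

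Transmembrane collagens are given one by one, and differences between them were not tested. Col13a1 (ENSMUSG00000058806, chromosome 10, 61838236 to 61979108), found at cell contacts with the matrix, had 0.424, 0.751 and 0.623 FPKM in control 1 to 3, 1.56, 0.515 and 0.846 in IMQ 1 to 3, and 1.54, 0.752 and 0.699 in LYS-High 1 to 3. IMQ 1 and LYS-High 1 were high, and the other libraries of all groups overlapped. It was called higher in IMQ against control skin (1.11, standard error 0.396, edgeR adjusted p = 0.0391), a call that was lost without control 1 (0.13), control 3 (0.09), IMQ 1 (0.124) or IMQ 3 (0.0527), on library totals alone (0.178), with the replicate number as a block (0.0841) and with all 9 libraries in a single fit (edgeR adjusted p = 0.0576). The range over alternatives was 0.0156 to 0.178. Col23a1 had 3.95, 4.73 and 5.52 FPKM in control 1 to 3, 3.94, 2.54 and 1.54 in IMQ 1 to 3, and 5.07, 4.04 and 3.95 in LYS-High 1 to 3. It was not called in any comparison, with -0.39 in IMQ against control skin (edgeR adjusted p = 0.246), except there without IMQ 1 (-0.68, edgeR adjusted p = 0.037) and on library totals alone (edgeR adjusted p = 0.0465), over a range of 0.037 to 0.636.

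Col25a1, a transmembrane collagen known from neurons, had 18, 26 and 21 counts in control 1 to 3, 1, 6 and 5 in IMQ 1 to 3, and 1, 2 and 2 in LYS-High 1 to 3. Its log2 fold change in IMQ against control skin was -1.86 (edgeR adjusted p = 0.0197), not called without control 2 (0.0645) or control 3 (edgeR adjusted p = 0.0501), over a range of 0.00567 to 0.0645. It was also called lower in LYS-High against control skin (edgeR adjusted p = 0.00267). There the 5 counts against 65 give a ratio of 0.0893 with a 95% counting interval of 0.0281 to 0.219. Over that whole interval the gene lies below the class median of -0.78, so its place in the interval cannot move the median. Col26a1 had 51, 37 and 22 counts in control 1 to 3, 3, 6 and 0 in IMQ 1 to 3, and 0, 2 and 4 in LYS-High 1 to 3. It was called lower in both groups compared with the control group, at -3.04 (edgeR adjusted p = 0.00652) and -3.79 (edgeR adjusted p = 0.00644), and at -4.05 without IMQ 2 and -4.67 without LYS-High 3. Col25a1 and Col26a1 had too few counts for a test of LYS-High against IMQ skin. They passed the filter against control only through the control libraries, and their exact log2 fold changes are uncertain. Col28a1, a collagen related to type VI and known from peripheral nerve, had 1.51, 1.1 and 1.77 FPKM in control 1 to 3, 0.567, 0.671 and 0.518 in IMQ 1 to 3, and 0.932, 1.1 and 2.22 in LYS-High 1 to 3. It was called lower in IMQ against control skin (-0.86, edgeR adjusted p = 0.0164), but not without control 1 (0.0545) or control 3 (edgeR adjusted p = 0.0586), over a range of 0.00273 to 0.0586. Against the IMQ group, Col28a1 was at 1.0 in the LYS-High group (edgeR adjusted p = 0.103), called without LYS-High 1 (edgeR adjusted p = 0.0446, with 0.0326 to 0.299 over the alternatives).

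Collagen chains need hydroxylases, chaperones, propeptide-cleaving proteases and cross-linking enzymes, and a list of 36 such genes was examined. With IMQ set against control, 23 of 35 tested genes were called lower (26.9% of all genes were) and 2 higher (24.1% of all genes), with a median log2 fold change of -1.21. For LYS-High against IMQ skin edgeR called 0 of 34 (0.0% of all genes, median 1.04) and DESeq2 19 of 34, all higher (12.8% of all genes), and in LYS-High against control skin 12 of 35 were lower and 0 higher, where 12.9% and 15.1% of all genes were (median -0.28). Sparc, a matrix glycoprotein that binds collagen, was the most abundant, with 1155.0, 1505.9 and 1255.4 FPKM in control 1 to 3, 297.6, 148.3 and 119.0 in IMQ 1 to 3, and 275.9, 439.2 and 553.1 in LYS-High 1 to 3. Serpinh1, the collagen chaperone HSP47, had 300.4 ± 45.8, 39.0 ± 20.4 and 120.1 ± 28.6 FPKM in control, IMQ and LYS-High skin (SD, n = 3). Both were called lower in both groups compared with the control group. P4hb, a subunit of prolyl hydroxylase that is also a general protein disulfide isomerase, went the opposite way, with 204.4, 226.0 and 233.2 FPKM in control 1 to 3, 293.0, 362.6 and 306.7 in IMQ 1 to 3, and 346.0, 296.3 and 242.3 in LYS-High 1 to 3. It was called higher in the IMQ group (0.99, edgeR adjusted p = 0.00174), as was P3h2 (0.58, edgeR adjusted p = 0.0185), a prolyl hydroxylase of type IV collagen whose value was at the fold change threshold and whose adjusted p reached 0.571 among the alternatives. The log2 fold change of P4hb was as low as 0.54 among the alternatives, under that threshold.

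Of 10 collagen receptor genes, 6 of 9 tested were called lower and 1 higher in IMQ against control skin, where 26.9% and 24.1% of all genes were (median -1.14). In LYS-High against IMQ skin edgeR called 0 of 9 (0.0% of all genes, median 1.03), while DESeq2 called 5 of 9 higher (12.8% of all genes): Mrc2, Itgb1, Ddr2, Itga1 and Itga11. Against control skin edgeR and DESeq2 called 0 of 9, where edgeR called 12.9% of all genes lower and 15.1% higher (median 0.24), and without LYS-High 1 edgeR called 2 higher, near the 15.5% of all genes called higher there. Itgb1, the beta subunit shared by collagen-binding integrins, had 131.3 ± 3.36 FPKM in control, 36.6 ± 10.4 in IMQ and 88.6 ± 22.4 in LYS-High skin (SD, n = 3). The discoidin domain receptors went in opposite directions. Ddr2, which binds fibrillar collagens in mesenchymal cells, had 18.1 ± 0.562, 5.38 ± 0.816 and 13.4 ± 6.36 FPKM and fell in the IMQ group by 1.31 on the log2 scale (edgeR adjusted p = 5.5e-05). Ddr1, the epithelial member, had 16.7 ± 2.93, 29.6 ± 1.44 and 23.9 ± 10.5 FPKM and rose in the IMQ group by 1.28 (standard error 0.14, edgeR adjusted p = 0.000167). In the LYS-High group Ddr1 was at 36.0 FPKM in LYS-High 1 and at 18.2 and 17.5 in LYS-High 2 and 3.

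Fibroblast markers, like the collagens, were lower in sum in IMQ than in control skin. In the comparison of IMQ with control skin 8 of 10 were called lower (26.9% of all genes) and 0 higher (median -1.66), edgeR called 0 in LYS-High against IMQ skin (median 1.29) where DESeq2 called 8 of 10 higher (12.8% of all genes), and 2 were lower (12.9% of all genes) and Fbln1 higher in LYS-High against control skin (median -0.40). Their summed FPKM was 1367.1, 1626.5 and 1151.7 in control 1 to 3 and 307.2 ± 111.8 and 897.8 ± 379.6 in the IMQ and LYS-High groups (SD, n = 3), Dpt was the most abundant, and no marker was at 0. Collagen FPKM per FPKM of this sum was 2.55, 2.56 and 3.66 in control 1 to 3, 3.06, 1.95 and 1.9 in IMQ 1 to 3, and 2.33, 2.27 and 1.96 in LYS-High 1 to 3. On this scale IMQ 1 lay within the control range, while IMQ 2, IMQ 3 and all LYS-High libraries lay below all control libraries. Dpt, Dcn and Clec3b, the most abundant markers, weigh most in this sum. The part of these cells in the fall of the collagens was not tested.

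Endothelial markers, from vessels whose walls hold types IV, VIII, XV and XVIII, were called lower for 6 of 8 genes in IMQ against control skin (26.9% of all genes, median -0.98) and for 0 of 8 by edgeR in both comparisons of the LYS-High group (0.0% of all genes against IMQ and 12.9% against control, medians 1.19 and 0.07). DESeq2 called 7 of 8 higher in LYS-High against IMQ skin (12.8% of all genes), and without LYS-High 1 edgeR called 3 higher against control skin (15.5% of all genes). Their summed FPKM was 129.3, 144.2 and 108.4 in control 1 to 3, 70.4, 38.0 and 30.8 in IMQ 1 to 3, and 77.7, 148.4 and 168.4 in LYS-High 1 to 3, with Pecam1 the most abundant. LYS-High 2 and 3 were thus above the control libraries, where Col4a1 and Col4a2 were not. Smooth muscle and pericyte markers summed to 175.5, 165.7 and 169.4 FPKM in control 1 to 3, 96.1, 74.5 and 52.3 in IMQ 1 to 3, and 99.5, 153.9 and 183.8 in LYS-High 1 to 3, led by Acta2. Of these, 2 were called lower and Notch3 higher of 6 in IMQ against control skin (26.9% and 24.1% of all genes, median -0.72), edgeR called 0 of 6 in LYS-High against IMQ skin (median 1.02) and DESeq2 Acta2 and Cnn1 higher (12.8% of all genes), and Notch3 alone was higher of 7 against control skin (15.1% of all genes, median 0.17). In IMQ against control skin the lower call of Kcnj8 (-0.68, edgeR adjusted p = 0.0357) was lost with all 9 libraries in a single fit (edgeR adjusted p = 0.19). The part of vessel cells in the collagen results was not tested.

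Markers of tissue under the dermis were also lower in sum in IMQ and LYS-High than in control skin. Skeletal muscle markers summed to 7044.2, 7040.6 and 6603.8 FPKM in control 1 to 3, 2201.5, 1753.2 and 852.1 in IMQ 1 to 3, and 2498.0, 3013.3 and 4572.1 in LYS-High 1 to 3, led by Acta1. Adipocyte markers summed to 4424.7, 5882.3 and 2588.0, then 835.9, 296.5 and 176.2, and then 621.5, 1242.7 and 2119.1 FPKM, led by Car3. In both lists IMQ 1 was the highest IMQ library and LYS-High 1 the lowest LYS-High library, as for collagens. Of the muscle markers 8 of 9 were called lower with IMQ (26.9% of all genes) and 6 of 9 with LYS-High (12.9% of all genes). Of the adipocyte markers 7 of 7 and 6 of 7 were, all against control skin (medians -1.58, -0.95, -3.22 and -1.66). Without LYS-High 2, 0 of 7 adipocyte markers were called lower in LYS-High against control skin (7.02% of all genes). Neither list had a call by edgeR in LYS-High against IMQ skin (medians 0.80 and 1.47), while DESeq2 called Pvalb of the muscle markers and Adipoq, Cidec and Fabp4 of the adipocyte markers higher (1 of 9 and 3 of 7, with 12.8% of all genes). Schwann cell markers summed to 280.6, 285.0 and 249.4 FPKM in control 1 to 3, 55.4, 78.0 and 33.8 in IMQ 1 to 3, and 53.6, 127.1 and 231.6 in LYS-High 1 to 3, led by Pmp22. They had 4 of 6 called lower in the IMQ group (26.9% of all genes, median -1.09) and 0 of 6 in the LYS-High group (median -0.28) compared with the control group, and in LYS-High against IMQ skin edgeR called 0 of 6 (median 0.89) and DESeq2 only Pmp22, higher (12.8% of all genes). How much muscle, fat and nerve a piece of skin held, and the part of this in the collagen results, was not tested.

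Like Col17a1 and Col7a1, suprabasal keratinocyte markers were higher in sum in the IMQ group than in the control group, and of the leukocyte markers this held for S100a8 but not for the sum of the rest. Suprabasal keratinocyte markers summed to 1614.8, 1491.2 and 2928.5 FPKM in control 1 to 3, 8999.4, 12911.1 and 14911.7 in IMQ 1 to 3, and 6587.1, 3539.0 and 4693.4 in LYS-High 1 to 3, led by Krt10. Of these 6 genes 6 were called higher in the IMQ group (24.1% of all genes, median 3.10) and 5 in the LYS-High group (15.1% of all genes, median 1.78) compared with the control group, and in LYS-High against IMQ skin edgeR called 0 (median -1.35) and DESeq2 all 6 lower (9.18% of all genes). Leukocyte markers summed to 162.0, 116.7 and 156.8 FPKM in control 1 to 3, 13237.4, 14982.8 and 14866.6 in IMQ 1 to 3, and 10748.4, 11580.7 and 4388.0 in LYS-High 1 to 3. Nearly all of this in the IMQ and LYS-High libraries was S100a8, which keratinocytes of inflamed skin also make, while S100a8 had 8.9, 10.1 and 58.3 FPKM in control 1 to 3. Without S100a8 the sum was 153.1, 106.5 and 98.5 FPKM in control 1 to 3, 76.6, 77.1 and 64.8 in IMQ 1 to 3, and 101.3, 222.1 and 271.4 in LYS-High 1 to 3, so every IMQ library lay below every control library. Of the leukocyte markers 2 of 7 were called higher and Mpo lower in the IMQ group (24.1% and 26.9% of all genes, median -0.15), a share near that of all genes, and 3 of 7 higher and Mpo lower with LYS-High (15.1% and 12.9% of all genes, median 1.14), both compared with the control group. From IMQ to LYS-High skin edgeR called 0 of 6 (median 0.93), while DESeq2 called Ptprc, Adgre1 and Itgam higher (12.8% of all genes) and S100a8 lower (9.18% of all genes). The part of these cells in the collagen results was not tested.

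Hair follicle markers, in skin from which hair had been removed in every group, summed to 1949.9, 1210.2 and 2759.8 FPKM in control 1 to 3, 7.56, 6.18 and 5.29 in IMQ 1 to 3, and 8.32, 7.23 and 3.41 in LYS-High 1 to 3, led by Krt71. In each of the comparisons with the control group 10 of 10 were called lower (26.9% and 12.9% of all genes, medians -9.45 and -9.66), and edgeR and DESeq2 called 0 of 4 tested in LYS-High against IMQ skin (median -0.04). The genes not tested there passed the filter against control only through the control libraries. The medians against control rest partly on groups at or near 0 counts and are not exact folds. Krt31 was at 0 in every IMQ and LYS-High library. Of the collagens, Col11a1 came nearest to this pattern, with 4.39 to 9.78 FPKM in control libraries, highest in control 3 and lowest in control 2 as the hair follicle sum was, and at most 0.47 FPKM in the other libraries. This order of control libraries was not particular to Col11a1, since Col17a1 and Col7a1, called higher in IMQ skin, had it too. Cartilage markers summed over 7 genes to 4.75, 5.12 and 7.81 FPKM in control 1 to 3, 1.17, 0.664 and 0.335 in IMQ 1 to 3, and 1.02, 2.26 and 3.86 in LYS-High 1 to 3, with Matn1 and Matn3 at or near 0 counts and Acan the most abundant. Acan had 2.92, 3.44 and 5.22 FPKM in control 1 to 3 and at most 0.0893 in any other library, and it was called lower in the IMQ group (edgeR adjusted p = 0.000145) and in LYS-High skin (0.000204) against control skin. It passed the filter in these comparisons only through the control libraries. Like Col11a1 it was highest in control 3, but it was lowest in control 1, where Col11a1 was lowest in control 2. Of the cartilage markers, 2 of 3 tested were called lower in the IMQ group (26.9% of all genes, median -2.34), 0 of 3 by edgeR in LYS-High against IMQ skin (median 0.84), where DESeq2 called Cnmd higher (12.8% of all genes), and 2 of 4 lower and Cnmd higher in LYS-High against control skin (12.9% and 15.1% of all genes, median -0.53). Their part in the Col11a1 result was not tested.

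The type IV genes lie in head-to-head pairs. In GENCODE M21, Col4a1 on the minus strand of chromosome 8 starts at 11312826 and Col4a2 on the plus strand at 11312805, so their first exons share 22 bases. Col4a4 and Col4a3 start 71 bases apart on chromosome 1 and Col4a6 and Col4a5 1308 bases apart on chromosome X. The log2 fold changes of Col4a1 and Col4a2 were -1.65 and -1.43 in IMQ against control, 1.16 and 1.05 in LYS-High against IMQ and -0.55 and -0.44 in LYS-High against control skin. Those of Col4a4 and Col4a3 were -1.21 and -1.51, 0.75 and 0.22, and -0.53 and -1.36. The ratio of Col4a4 to Col4a3 FPKM was 2.67, 2.89 and 3.24 in control 1 to 3, 3.05, 5.92 and 3.37 in IMQ 1 to 3, and 8.32, 4.76 and 4.91 in LYS-High 1 to 3. It was thus higher in every LYS-High library than in any control library, on low counts of Col4a3. Of the third pair only Col4a5 was tested.

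Promoter windows from 250 bases before to 50 after the start were taken from RefSeq (GRCm38.p6) for 34 of the 43 genes, which have 36 windows. The RefSeq start can differ from the GENCODE gene start. For Col1a2 the window begins at 4505368, after the GENCODE start at 4504814. Col1a1, Col2a1, Col5a2, Col4a3, Col9a3, Col12a1, Col14a1, Col22a1 and Col26a1 had none. The CCAAT box (letters CCAAT), the GC box (letters GGGCGG) and the TATA box (letters TATAAA) were searched on both strands. The CCAAT box was in 33.3% of the 36 collagen windows and in 37.4% of all 32851 promoter windows, the GC box in 63.9% and 35.7%, and the TATA box in 13.9% and 13.6%. The CCAAT box was in 6 of 9 basement membrane windows, 3 of 8 fibrillar windows and 3 of 19 windows of other collagens. The windows below are of genes that moved together or in opposite directions: the paired Col4a1 and Col4a2, the called-higher Col7a1 and Col17a1, and the abundant Col1a2 and Col3a1. Capitals mark matches to any of the motifs on either strand, none of which overlap in these windows, and a match is a description of the letters and not of a bound factor.
Col4a1, chr8:11312777-11313076, minus strand: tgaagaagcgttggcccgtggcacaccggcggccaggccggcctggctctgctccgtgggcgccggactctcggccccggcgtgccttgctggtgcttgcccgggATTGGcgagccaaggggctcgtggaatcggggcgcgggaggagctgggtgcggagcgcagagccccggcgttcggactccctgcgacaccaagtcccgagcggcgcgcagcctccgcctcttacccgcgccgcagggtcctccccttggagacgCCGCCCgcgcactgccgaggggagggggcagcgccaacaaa
Col4a2, chr8:11312555-11312854, plus strand: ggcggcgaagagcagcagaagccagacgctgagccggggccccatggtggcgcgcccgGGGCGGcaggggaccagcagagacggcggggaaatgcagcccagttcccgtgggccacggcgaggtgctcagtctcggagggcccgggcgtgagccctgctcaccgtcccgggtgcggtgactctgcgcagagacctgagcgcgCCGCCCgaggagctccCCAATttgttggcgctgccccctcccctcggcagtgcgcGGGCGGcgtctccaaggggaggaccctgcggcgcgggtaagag
Col7a1, chr9:108953336-108953635, plus strand: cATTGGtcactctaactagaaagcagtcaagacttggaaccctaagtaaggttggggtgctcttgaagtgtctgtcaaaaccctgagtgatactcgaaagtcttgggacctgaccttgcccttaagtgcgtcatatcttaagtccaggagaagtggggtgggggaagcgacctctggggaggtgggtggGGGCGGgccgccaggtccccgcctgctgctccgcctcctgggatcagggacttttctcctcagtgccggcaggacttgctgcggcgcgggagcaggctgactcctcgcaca
Col17a1, chr19:47691993-47692292, minus strand: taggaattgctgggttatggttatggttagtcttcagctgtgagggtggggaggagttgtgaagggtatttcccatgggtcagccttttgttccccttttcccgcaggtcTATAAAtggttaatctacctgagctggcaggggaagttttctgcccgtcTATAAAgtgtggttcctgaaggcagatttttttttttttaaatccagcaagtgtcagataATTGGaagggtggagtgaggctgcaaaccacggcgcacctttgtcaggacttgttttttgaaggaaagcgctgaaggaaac
Col1a2, chr6:4505368-4505667, plus strand: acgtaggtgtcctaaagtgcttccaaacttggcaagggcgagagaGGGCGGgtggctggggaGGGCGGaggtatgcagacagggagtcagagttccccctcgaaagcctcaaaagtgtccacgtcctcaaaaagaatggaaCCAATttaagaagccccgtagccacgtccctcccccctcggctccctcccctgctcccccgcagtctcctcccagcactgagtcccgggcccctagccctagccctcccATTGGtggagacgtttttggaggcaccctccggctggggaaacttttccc
Col3a1, chr1:45311288-45311587, plus strand: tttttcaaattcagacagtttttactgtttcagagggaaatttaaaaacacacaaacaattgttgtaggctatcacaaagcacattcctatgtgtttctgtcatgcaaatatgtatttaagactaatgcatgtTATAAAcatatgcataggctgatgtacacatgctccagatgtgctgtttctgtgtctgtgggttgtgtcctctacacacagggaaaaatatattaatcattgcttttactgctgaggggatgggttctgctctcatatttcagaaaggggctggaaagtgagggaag

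The Col4a1 and Col4a2 windows share 78 bases, read from opposite strands, and both hold a CCAAT box and a GC box. So do those of Col7a1 and Col1a2. The Col17a1 window holds a TATA box and a CCAAT box but no GC box, and the Col3a1 window holds a TATA box alone of these motifs.

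Some values carry limits from the gene models. The length behind FPKM was the GENCODE M21 exon length for 40 of the 43 genes and differed for Col5a1, Col13a1 and Col25a1, which bears on comparisons of their FPKM with that of other genes and not on comparisons between libraries. The sources used here do not state whether the counting used strand, and reads from genes that overlap on opposite strands cannot then be told apart. The overlap was 6.07% of the exon length for Col9a3 with Tcfl5, 5.65% for Col4a3 with C430014B12Rik, and at most 1.9% with any single gene for the other collagens. Low members such as Col9a3, Col25a1 and Col26a1 rest on few counts, as given with each. Col4a3 had 88, 94 and 69 counts in control 1 to 3 and 41, 10 and 12 in IMQ 1 to 3. In LYS-High 1 to 3 it had 7, 28 and 44.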

How the data were processed

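Back skin RNA of the 9 libraries was extracted with TRIzol, prepared with the NEBNext Ultra RNA kit and sequenced on Illumina HiSeq. The submitters' processing notes list HISAT2 (version not given), HTSeq 0.13.5 and GRCm38. The authors deposited 1 raw count and 1 FPKM value per gene and library, the latter scaled to gene length and summed counts, and the annotation release and strand setting of counting are not given in the sources used here. Groups were taken from the labels. From the deposited counts, log2 fold changes were computed with edgeR 4.0.16 in R 4.3.3 (filterByExpr, TMM, quasi-likelihood test, Benjamini-Hochberg adjustment over all genes tested) on the 6 libraries of each comparison, after the code had been tested on simulated data. Alternatives were DESeq2 1.42.0, other scaling, no filter, all 9 libraries in a single fit, other thresholds, the replicate number as a block and leaving out each library in turn. Sums, shares and ratios were computed per library in Python 3.11.15 with pandas 2.3.3, and plots were drawn with matplotlib 3.10.9. Intervals and zero limits (3 counts) cover counting error only, since reads carried no molecular identifiers.

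All 43 collagen genes were accounted for: values in every library were given for genes with a mean of at least 10 FPKM, for the best expressed gene of each other type, and for genes called against the direction of their class. In the lists of collagen processing and receptor genes, the 3 most abundant genes and those called in the opposite direction were named. The members and lists, among them markers of 11 cell types or tissues, were chosen with earlier results of these data known. Gene positions are from GENCODE M21 (GRCm38) and promoter windows from RefSeq (GRCm38.p6).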

Additional observations from a re-analysis of the deposited data

How the results depend on the processing

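Over the log2 fold changes of the tested collagens and their alternatives, 1213 values kept their direction and their side of the threshold, 45 were no longer called, 115 became called and 31 changed sign. No class median changed sign. Of the calls, 24 of 30 in IMQ against control and 10 of 17 in LYS-High against control held in every refit. Of these, an absolute log2 fold change over 1 kept 24 and 9, without Col6a3 in LYS-High against control. In LYS-High against IMQ, where edgeR called 0 collagens, DESeq2 called 15 higher (12.8% of all genes), edgeR without a filter on low counts 11 (5.3%), edgeR with all 9 libraries 12 (9.93%), DESeq2 with all 9 libraries 20 (13.9%) and an adjusted p under 0.1 gave 12 (12.5%), and leaving out each library in turn gave 0 (0.0% of all genes) to 17 (6.8%). Leaving out a library gave 11 to 22 lower calls in LYS-High against control, where 6.6% to 14.2% of all genes were called lower. The cause was not tested.

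The basement membrane median on library totals was -1.67 in IMQ against control and 0.66 in LYS-High against IMQ, where leaving out a library gave 0.19 to 0.87, 0.8 to 1.8 for the fibrillar and 0.95 to 1.73 for the other collagens. The share of collagens in a control library was 3.0% of TMM-scaled CPM. As a share of summed FPKM it was 1.21%, 0.18% and 0.512% in control, IMQ and LYS-High skin, and without Col1a1, Col1a2 and Col3a1 it was 0.785%, 0.172% and 0.393% of counts. The basement membrane share in the control group was 6.1% by counts and 8.76% with Col15a1 included. The Col3a1 to Col1a1 ratio was 1.33, 1.38 and 1.57 by counts, which keep gene length, and 1.16, 1.22 and 1.4 over the mean of Col1a1 and Col1a2. These shifts follow from the changed unit or members. The cause of the shifts with scaling or a left-out library was not tested.

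Log2 fold changes that changed sign were of genes that had no call in that comparison. In IMQ against control, Col24a1 was at -0.18 on library totals and at -0.02 to 0.51 with a library left out. In LYS-High against IMQ, Col24a1 was at -0.01 with DESeq2 and with RLE scaling, -0.05 and -0.04 with all 9 libraries in edgeR and DESeq2, -0.08 with the replicate block and -0.46 to 0.2 with a library left out. Col13a1 was there at 0.04 on library totals and -0.68 to 0.24 with a library left out, Col11a2 at -0.12 to 0.76 and Col4a3 at -0.35 to 1.0. In LYS-High against control, library totals gave -0.12 for Col23a1 and -0.04 for Col28a1, and leaving out a library gave -0.14 to 0.14 for Col23a1, -0.33 to 0.29 for Col28a1, -0.24 to 0.47 for Col24a1, -0.11 to 0.05 for Col18a1, -0.38 to 0.22 for Col6a5 and -0.02 to 0.26 for Col20a1. The cause was not tested.

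Samples with the same replicate number did not deviate together (correlations across genes of -0.476 to 0.214) and not every sample correlated best with its own number. The labels link them by number only, and whether they shared a batch was not tested. With the replicate number as a block, 29 collagens were called in IMQ against control (27 lower and 2 higher, with 26.6% and 23.8% of all genes), 0 in LYS-High against IMQ and 15 in LYS-High against control (13 lower and 2 higher, with 8.78% and 10.8% of all genes). Col2a1, Col4a6, Col9a2, Col10a1 and Col19a1 had too few counts at this depth for edgeR's filter and were not tested.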
